A study of Mus musculus with 4 samples.

Results

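The canonical histone genes of mouse hematopoietic stem and progenitor cells were described in single-cell RNA-Seq counts from wild-type animals and from a hematopoietic knockout of Sin3B. Members were taken by name and depth: a gene symbol that begins with Hist1h, Hist2h, Hist3h or Hist4h, and at least 10 unique molecular identifiers (UMIs, each 1 captured RNA molecule) over the cells with 1 hashtag in each of the 2 libraries. Of 32285 genes, 67 bear such a symbol and 59 were members, among them 5 genes of linker histone H1, 15 of H2A, 15 of H2B, 11 of H3 and 13 of H4. Just inside the minimum lay Hist1h2ao with 24 UMIs at homeostasis and 22 after 5-FU, and just outside it lay Hist1h1t with 5 and 14. The other genes outside it were Hist1h2aa, Hist1h2ba, Hist1h2bq, Hist1h3h, Hist2h2aa2, Hist2h2bb and Hist3h2a.

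All mice were C57BL/6. The knockout (Sin3B-/-) combined a floxed Sin3B allele with Vav1-iCre, a recombinase active in hematopoietic cells. It was set against mice that the study calls wild type (Sin3B+/+). The study's methods list these mice as Sin3B F/F, so they carried the floxed allele. Marrow cells without lineage markers and with Sca-1 and cKit (LSK cells), which include stem cells and multipotent progenitors, were taken from untreated adult mice (homeostasis) or 9 days after 5-fluorouracil (5-FU), which is toxic to cycling cells, had been injected into the peritoneum at 100 mg/kg. In each condition the cells of 2 mice per genotype were pooled, stained with a hashtag antibody per genotype and loaded together in 1 library, so that the 4 samples are a cDNA and a hashtag library per condition. Each genotype is therefore 1 pool per library, and no test between genotypes within a library was possible. The 95% intervals given are exact counting intervals that leave out differences between mice and between cells. They treat each UMI as independent, although most histone UMIs came from few cells. Condition and library cannot be told apart, and levels were not compared between them.

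Dividing cells make histones in step with DNA. The replication-dependent genes, which lie in clusters, are transcribed in S phase, and their mRNAs end in a conserved stem-loop that is bound by the stem-loop binding protein Slbp instead of a poly(A) tail. A few cluster genes also give a longer, polyadenylated mRNA that differentiating or resting cells use, and 5 members had been listed as such: Hist1h1c, Hist1h2bc, Hist1h2be, Hist2h2be and Hist4h4. The remaining 54 are called replication-dependent here. The kit used primes on poly(A), so the counts sample a share of histone mRNA that is not known, and that share can differ between genes.

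In the GRCm38 annotation (GENCODE M21, matched by gene ID) 49 members lie on chromosome 13 and 8 on chromosome 3, with 1 each on chromosomes 11 and 6. A stem-loop was found in the annotated transcript of 41 members, in 6 forms, of which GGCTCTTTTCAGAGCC (24 members) and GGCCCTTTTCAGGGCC (7 members) were the most frequent. The transcript ended a median of 74 bases after it. In 17 members the gene model was extended, that is, longer than 1000 bases or with 2 or more exons. The stem-loops of 10 genes are shown to set members whose transcript ends near the loop beside members whose transcript runs far past it, and because they include the members that differed most between genotypes (capitals mark the stem-loop, 5′ to 3′, from GENCODE M21 transcripts).
Hist1h2ap (H2A, chr13:21833026-21833507, minus strand, ends 3 bases after the loop): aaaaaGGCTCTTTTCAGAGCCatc
Hist1h2ae (H2A, chr13:23570517-23571220, minus strand, 151 bases): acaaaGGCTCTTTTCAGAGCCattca
Hist1h3c (H3, chr13:23744973-23745602, minus strand, 74 bases): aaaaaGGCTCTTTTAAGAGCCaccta
Hist1h4m (H4, chr13:21811746-21812147, plus strand, 3 bases): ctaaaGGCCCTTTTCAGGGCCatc
Hist1h4n (H4, chr13:21831767-21832196, minus strand, 31 bases): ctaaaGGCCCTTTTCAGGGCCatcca
Hist3h2ba (H2B, chr11:58948920-58949533, plus strand, 169 bases): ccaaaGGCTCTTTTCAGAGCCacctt
Hist1h4d (H4, chr13:23581598-23582735, plus strand, 770 bases): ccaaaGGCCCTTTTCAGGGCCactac
Hist1h1c (H1, polyadenylated, chr13:23738808-23740367, plus strand, 840 bases): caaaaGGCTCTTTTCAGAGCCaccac
Hist1h2be (H2B, polyadenylated, chr13:23583670-23621124, minus strand, 1861 bases): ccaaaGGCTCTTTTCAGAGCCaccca
Hist4h4 (H4, polyadenylated, chr6:136801553-136804415, minus strand, 2445 bases): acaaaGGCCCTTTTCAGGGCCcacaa
The polyadenylated Hist1h2bc and Hist2h2be, and the replication-dependent Hist1h1b, held no loop in their annotated transcripts. Near-identical copies limit what single members can show. Windows of 91 bases were compared over the 3′ end of each annotated transcript alone. There, 19 members shared over 50% of their windows with another histone gene, and 19 shared none. Sharing nearer the 5′ end of longer transcripts was not counted, so sharing none does not mean that a gene has no near copy. The transcripts of Hist1h2ap and Hist1h2ao share 92.3% of the windows of Hist1h2ap, and those of Hist1h4m and Hist1h4n 88.5% of the windows of Hist1h4m, so the split of counts within each pair is uncertain. The gene bodies of Hist1h2be and Hist1h1e overlap on the same strand.

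Promoters were read from RefSeq (GRCm38.p6, 250 bases before to 50 after the start) for 54 members. CCAAT, counted on both strands, was in 37.9% of 27025 promoters of all genes, in all 5 of the H1, 15 of the H2A, 13 of the H2B and 9 of the H3 promoters matched, and in 3 of 12 H4 promoters. TATAAA on both strands was in 14.2% of all promoters and in 4 of 5 H1, 10 of 15 H2A, 7 of 13 H2B, 3 of 9 H3 and 8 of 12 H4 promoters. AAACACA, a motif known from H1 promoters, was in 4 of 5 H1 promoters, in 1 each of H2A and H2B, in no H3 or H4 promoter and in 7.14% of all. The octamer ATTTGCAT was in 4 of 13 H2B and 5 of 15 H2A promoters, in none of the other classes and in 1.75% of all. Several H2A and H2B promoters overlap on opposite strands, such as those of Hist1h2ae and Hist1h2bg and of Hist1h2ah and Hist1h2bk. A motif in the shared bases was counted for both classes, so the H2A and H2B counts are not independent. The 200 bases before the start are given for a member of each of 4 classes, to show how the classes differ (capitals mark CCAAT, the motif TATAAA or the H1 motif AAACACA on either strand, and do not say that a factor binds there).
Hist1h1b (H1, chr13:21780626-21780825, minus strand): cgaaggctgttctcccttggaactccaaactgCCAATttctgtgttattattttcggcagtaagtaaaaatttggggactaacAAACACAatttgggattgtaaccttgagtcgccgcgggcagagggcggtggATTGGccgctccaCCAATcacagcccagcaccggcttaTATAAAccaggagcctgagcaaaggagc
Hist1h2ap (H2A, chr13:21833476-21833675, minus strand): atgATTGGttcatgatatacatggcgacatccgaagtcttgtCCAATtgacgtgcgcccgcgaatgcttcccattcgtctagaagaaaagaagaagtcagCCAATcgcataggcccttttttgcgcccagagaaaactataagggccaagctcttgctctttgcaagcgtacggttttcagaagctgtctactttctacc
Hist3h2ba (H2B, chr11:58948711-58948910, plus strand): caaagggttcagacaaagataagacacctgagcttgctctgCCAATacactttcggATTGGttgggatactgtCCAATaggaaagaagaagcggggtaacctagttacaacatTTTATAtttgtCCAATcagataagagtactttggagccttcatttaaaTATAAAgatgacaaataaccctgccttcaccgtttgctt
Hist1h4d (H4, chr13:23581368-23581567, plus strand): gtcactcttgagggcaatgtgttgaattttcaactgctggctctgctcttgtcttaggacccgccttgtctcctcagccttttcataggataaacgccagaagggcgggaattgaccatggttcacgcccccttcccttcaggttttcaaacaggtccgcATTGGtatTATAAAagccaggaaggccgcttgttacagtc
CCAAT thus stood in these bases 3 times in Hist1h1b and Hist1h2ap, 4 times in Hist3h2ba and 1 time in Hist1h4d.

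Quality filters kept 10184 wild-type cells and 4108 knockout cells of the homeostasis library, and 4855 and 3307 of the 5-FU library, with median depths of 6606.5 to 10935 UMIs per cell. The libraries shared 76 cell barcodes. Sin3b was lower in the knockout pool of both libraries, at 81.7 against 23.3 CPM (UMIs per 1000000 gene UMIs of the pool) at homeostasis and 113 against 15.1 after 5-FU. The gate's genes Kit and Ly6a (the gene of Sca-1) were present in all pools. All 5 neutrophil markers were detected in every pool, with a summed level at homeostasis of 11.1 CPM in the wild-type pool and 52.5 in the knockout pool, and of 5.58 and 4.36 after 5-FU. Their part in the histone values was not tested.

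Histone transcripts made up 0.280% to 0.402% of gene UMIs, and most of them came from few cells and few genes. The tenth of cells with the most histone UMIs held 75.9% to 82.8% of them in the 4 pools. Of histone UMIs at homeostasis, H2A genes took 68.9% in wild-type and 69.6% in knockout cells. Hist1h2ap alone took 48.4% and 49.6% there, and 33.4% and 35.6% after 5-FU. Hist1h2ae added 15.3% to 16.3% in the 4 pools. These are shares of captured 3′ ends, which depend on how each gene was primed and on the split between copies, and not of histone protein.

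The leading H1 genes were Hist1h1b, at 115 CPM in wild-type and 111 CPM in knockout cells at homeostasis and 239 and 339 CPM after 5-FU, and Hist1h1e, at 122 and 108 CPM and at 205 and 217 CPM. For H3, Hist1h3c was at 82.6 and 74.3 CPM at homeostasis and at 126 and 148 CPM after 5-FU. For H4, Hist1h4d was at 60.6 and 55.9 CPM and at 145 and 151 CPM. For these 4 genes the wild-type pool had the higher level at homeostasis and the knockout pool after 5-FU. The H2B genes with the most UMIs were on the polyadenylated list. Hist1h2bc was at 48.5 and 42.3 CPM and at 65.1 and 75.6 CPM, and Hist1h2be at 50.1 and 48.8 CPM and at 19 and 18.9 CPM. The replication-dependent H2B gene with the most UMIs, Hist1h2br, was at 24.7 and 22.5 CPM and at 20.7 and 22.6 CPM.

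**Figure D1:**
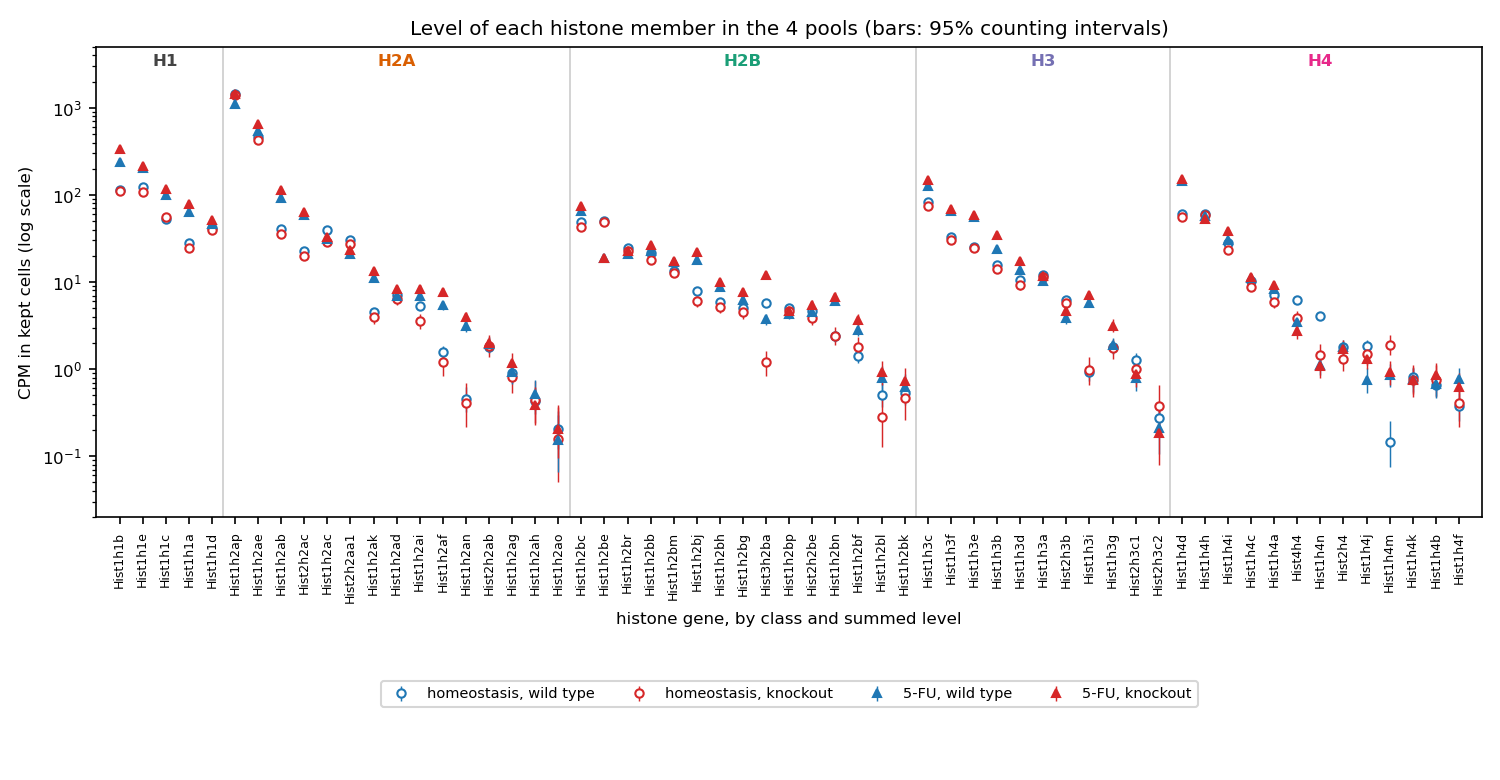
CPM (log scale) of each of the 59 members in kept cells, ordered by class and by summed level, with 1 point per genotype and library and bars for the 95% counting interval. Levels ran from under 1 CPM to 1447 CPM for Hist1h2ap, and the genotypes lay close together for most members, with Hist3h2ba, Hist1h4m and Hist1h4n apart.

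Cells were then ordered by the cell cycle to compare the members along it. Each cell, thinned to 4000 UMIs, was scored for 39 S phase and 53 G2/M genes, none of them a canonical histone, and called S, G2/M or, where both scores were at or below 0, G1. Replication-dependent members were 4.02-fold higher in S than in G1 cells of the homeostasis wild-type pool, 5.31-fold in knockout, and 4.28-fold and 5.02-fold after 5-FU. They were higher still in cells called G2/M, by 12.6-fold, 19-fold, 15.5-fold and 18.1-fold over G1 cells in the same order. In CPM, wild-type cells at homeostasis held 621 in G1, 2494 in S and 7842 in G2/M.

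The cells were also placed by the angle between the scores, which turns from cells with both scores below 0 to cells with an S score above 0, then with both above 0, and last with a G2/M score alone above 0. The replication-dependent sum lay between 502 and 700 CPM in the first 4 of 11 bins, where the G2/M score was below 0. It was highest where the G2/M score exceeded an S score at or above 0 (bin 8, 1.2 to 1.6 radians) or in the bin before it. At homeostasis bin 8 was at 12901 CPM in the wild-type pool and 17877 in the knockout pool, and after 5-FU at 17708 and 16158. In bin 10, where the S score was below 0, the sum was back to 1310 to 4617 CPM. Cells at the peak are called G2/M here because their G2/M score exceeds their S score.

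**Figure D2:**
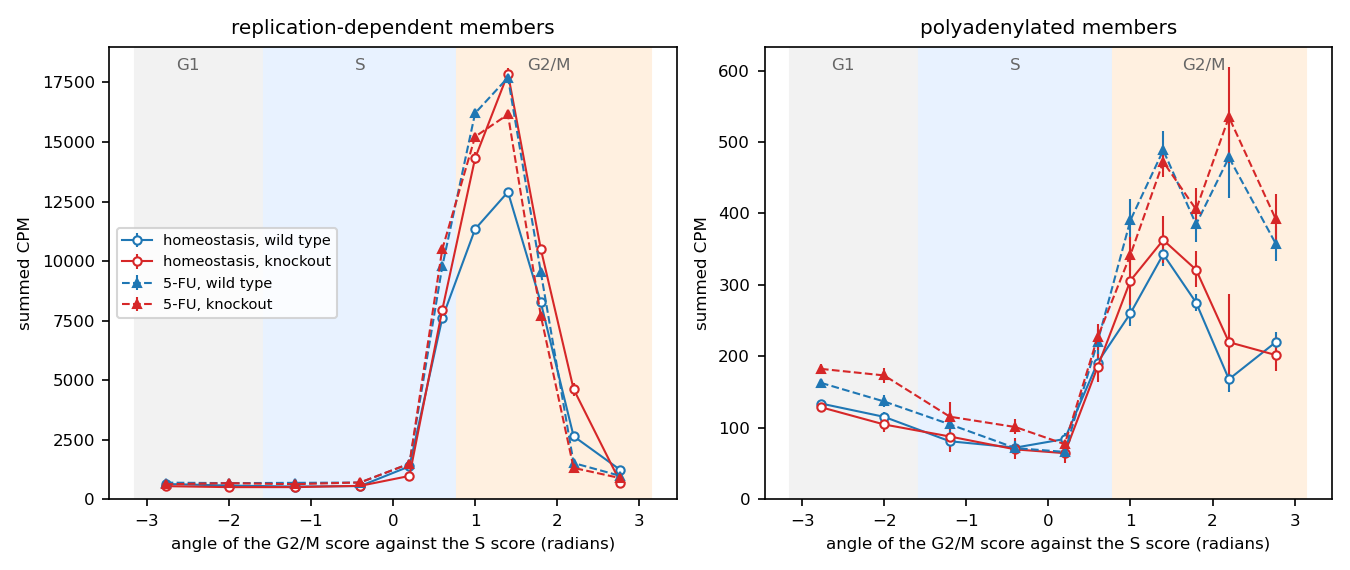
Summed CPM of replication-dependent and of polyadenylated members against the angle of the G2/M score over the S score in radians, with 1 line per genotype and library and 95% counting intervals. The replication-dependent sum rose from 502 to 700 CPM to 12901 CPM or more in the bin from 1.2 to 1.6 radians, while the polyadenylated sum was lowest between -0.8 and 0.4 radians.

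Between cells, the difference was one of many cells with few histone UMIs and few with many. At 4000 UMIs per cell, the median G1 cell held 2 histone UMIs at homeostasis and 3 after 5-FU in both genotypes, and so did the median S cell. The median G2/M cell of the wild-type pool held 13 at homeostasis and 8 after 5-FU, and that of the knockout pool 9 and 18.5. Cells with 40 or more histone UMIs were 0% of G1 cells, 7.06% to 10.4% of S cells and 31.5% to 42.4% of G2/M cells. The S mean thus came from a minority of S cells.

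The 5 classes differed in how far they rose. In wild-type cells at homeostasis the G2/M level was 17.2-fold the G1 level for H2A, 13.4-fold for H3, 4.92-fold for H1, 4.27-fold for H4 and 4.0-fold for H2B. H2A and H3 also had the highest folds in the other pools, at 25.5-fold to 28.5-fold and 14.8-fold to 18.4-fold, against 4.21-fold to 8.88-fold for H1, H2B and H4. These sums include the polyadenylated members, which are Hist1h1c in H1, Hist4h4 in H4 and Hist1h2bc, Hist1h2be and Hist2h2be in H2B. As a set these rose 2.06-fold in wild-type cells at homeostasis, and class folds without them were not taken. The H2A share of histone UMIs was 46.1% in G1 and 73.2% in G2/M cells of that wild-type pool, while the H1 share was 22.0% and 10.0%.

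Members of a class differed from each other as well, more in H1, H2A and H3 than among the leading H4 genes. Hist1h3c, the H3 gene with the most UMIs, had 3.57 CPM in G1, 63.2 in S and 267 in G2/M wild-type cells at homeostasis, a log2 ratio of S over G1 of 4.14 (3.90 to 4.40). In the same cells the H3 genes Hist1h3f and Hist1h3e had log2 ratios of S over G1 of 1.39 and 0.85. Among H2A genes, Hist1h2ab had log2 ratios of S over G1 of 3.62, Hist1h2ap of 2.74 and Hist1h2ae of 2.21, and their G2/M over G1 ratios were 5.75, 4.44 and 3.96. Hist1h2ac, whose annotated transcript runs 2010 bases past the loop, was lower in S than in G1 at homeostasis (-0.64, -0.81 to -0.47) and slightly higher after 5-FU (0.31, 0.06 to 0.56). Among H1 genes, Hist1h1b had a log2 ratio of S over G1 of 3.77, Hist1h1e of 0.24 and Hist1h1c of -0.53. The leading H4 genes Hist1h4d, Hist1h4h and Hist1h4i had 0.68, 0.62 and 0.87, all below the leading H2A genes.

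Summed by the length of the gene model, the members differed as well. Over the 42 members without an extended model, the log2 ratio of S over G1 in wild-type cells was 2.40 (2.37 to 2.42) at homeostasis and 2.66 (2.63 to 2.69) after 5-FU. Over the 17 with one it was 0.17 (0.12 to 0.21) and 0.31 (0.26 to 0.35). In G2/M over G1 cells the short models reached 4.07 and 4.54 and the extended models 1.61 and 2.04. Extended models include replication-dependent genes such as Hist1h1e, Hist1h2ac and Hist1h4d beside the polyadenylated list. They held 17.0% of histone UMIs of wild-type cells at homeostasis, and the sum over short models was mostly Hist1h2ap and Hist1h2ae. Single members did not all follow the split, since the extended Hist1h3f had a higher S over G1 ratio than the short Hist1h3e, and the extended Hist1h4d lay near the short Hist1h4h.

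The sum of the polyadenylated members was lower in S than in G1 cells in all 4 pools, at 0.81-fold, 0.83-fold, 0.68-fold and 0.67-fold, and higher in G2/M cells, at 2.06-fold to 2.63-fold. Along the angle it started at 129 to 182 CPM, was lowest in the fourth or the fifth bin at 64.3 to 76.9 CPM, where the S score was well above the G2/M score, and stood at 343 to 488 CPM in bin 8. In bin 10 it was lower again at homeostasis, at 168 and 220 CPM, and at 478 and 535 CPM after 5-FU. Polyadenylated members were 17.3% of histone UMIs in G1 and 3.30% in G2/M wild-type cells at homeostasis.

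Hist1h1c, the H1.2 gene, held 45.3 CPM in G1, 31.3 in S and 81.0 in G2/M wild-type cells at homeostasis. Hist1h2bc went the same way with 42.9, 25.6 and 75.8 CPM, and Hist2h2be with 4.35, 2.69 and 6.63 CPM. Hist4h4, a lone H4 gene outside the clusters, held 5.98, 4.03 and 7.75 CPM. Empty droplets at homeostasis held 64.1 CPM of Hist1h1c and 66.6 CPM of Hist1h2bc, above the G1 and S levels of each. They held 2.59 CPM of Hist4h4 (4 UMIs), below its levels. Hist1h2be differed from the others on the list, with 31.5, 42.1 and 96.5 CPM and an S over G1 log2 ratio above 0 in all 4 pools (0.34 to 0.55). Its gene body overlaps that of Hist1h1e. A lower level in S was also seen outside the list, for the replication-dependent Hist1h2ac at homeostasis and Hist3h2ba in wild-type cells of both libraries.

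Of the 41 members with 50 or more UMIs in every pool, 25 were at least 1.5-fold higher in S than in G1 cells in all 4 pools, against 6.77% of all genes at that depth, and none of the 5 polyadenylated members was among them. No member was 1.5-fold lower in all 4 pools in S (7.15% of all genes) or in G2/M cells (4.61%). In G2/M over G1 cells 40 of the 41 passed, against 4.95% of all genes, with Hist4h4 as the exception. The cells that define the phases are the cells compared, so these counts describe the members and carry no test.

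**Figure D3:**
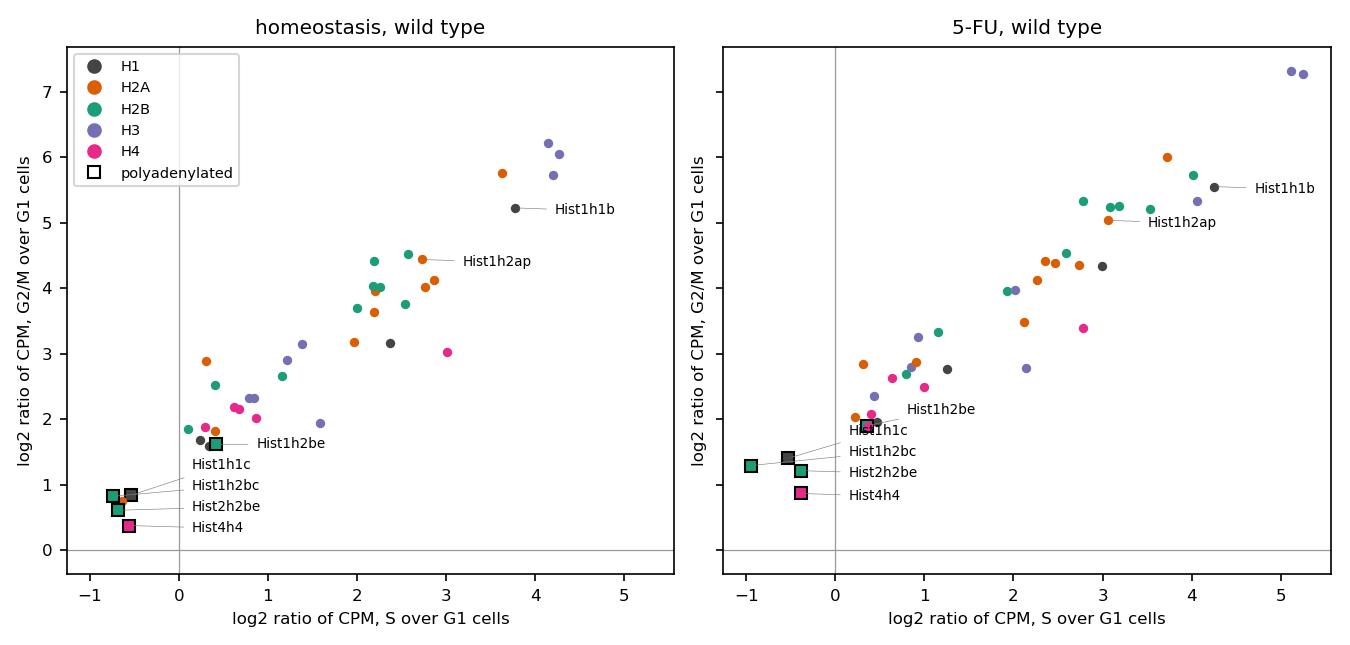
Log2 ratio of CPM in S over G1 cells against that in G2/M over G1 cells, for members in wild-type cells of each library, coloured by class, with the polyadenylated list as black-edged squares. Hist1h3c (4.14 and 6.22 at homeostasis) and Hist1h2ab (3.62 and 5.75) lie at the upper right, and Hist1h1c (-0.53 and 0.84) and Hist1h2bc (-0.74 and 0.82) at the lower left.

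RNA outside cells carried histone transcripts too. Homeostasis barcodes with 10 to 100 UMIs, taken as empty droplets, held 1426 CPM of histone transcripts (1367 to 1487), against 751 CPM in wild-type G1 cells. For Hist1h2ap the empty droplets held 600 CPM and wild-type G1 cells 196 CPM. The part of free RNA in the values of G1 and S cells was not tested. The 5-FU barcodes had been filtered for cells and gave no such value.

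Histone levels differed between cell populations along with their share of G2/M cells, with which the summed level had an r of 0.725 over 20 cluster-by-genotype pools at homeostasis and of 0.914 over 17 after 5-FU (pools of 1 library share its depth). The clustering that gave the populations left out the histone genes. At homeostasis, LT-HSC-like cells (long-term stem cells, named from 10 markers) held 836 CPM of histone transcripts in wild-type (816 to 857) and 808 in knockout cells (787 to 829), with 4.80% and 4.23% of them in G2/M. The log2 ratio of -0.05 depended on the cells used. It was 0.10 with all cells that bore 1 hashtag, -0.39 under a rule of 80% of hashtag UMIs for 1 tag and -0.42 with coarser clusters. Megakaryocyte-erythroid-primed-like cells held 5867 and 6937 CPM, with 27.9% and 32.5% in G2/M. Lymphoid-primed-like cells held 2475 and 3758 CPM and myeloid-primed-like cells 3205 and 6385 CPM, but only 115 and 94 knockout cells bore these names. After 5-FU, LT-HSC-like cells held 1311 and 1477 CPM, myeloid-primed-like cells 3227 and 3918 CPM and megakaryocyte-erythroid-primed-like cells 7382 and 7541 CPM. The sign for LT-HSC-like cells changed here too, to a log2 ratio of -0.088 with all cells that bore 1 hashtag, and it was 0.0012 in cells taken by the study's signature. The order of the named populations from lowest to highest was the same in both genotypes after 5-FU. The genotypes filled different clusters of the LT-HSC-like class. At homeostasis a cluster led by Gm5833 and Meis2 held 1140 of the 1216 wild-type cells, and one led by Pdgfc and Dnm3 held 1131 of the 1159 knockout cells. In the latter, 76 wild-type cells held 624 CPM of histone transcripts and the knockout cells 815 CPM. After 5-FU a cluster led by Cldn5 and Cyp26b1 held 703 CPM in 234 wild-type and 683 CPM in 689 knockout cells, and one led by Meg3 and Pla2g7 held 1399 CPM in 1019 and 2041 CPM in 572 cells. The first of these had 8 of the 10 LT-HSC markers raised and the second 6, against 10 in both homeostasis clusters. The myeloid-primed-like cluster after 5-FU had 5 of 9 markers raised. Clusters that no marker list named took 5064 wild-type cells and 2453 knockout cells at homeostasis, at 3083 and 2737 CPM, and 1855 and 941 cells after 5-FU, at 2118 and 2830 CPM.

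**Figure D4:**
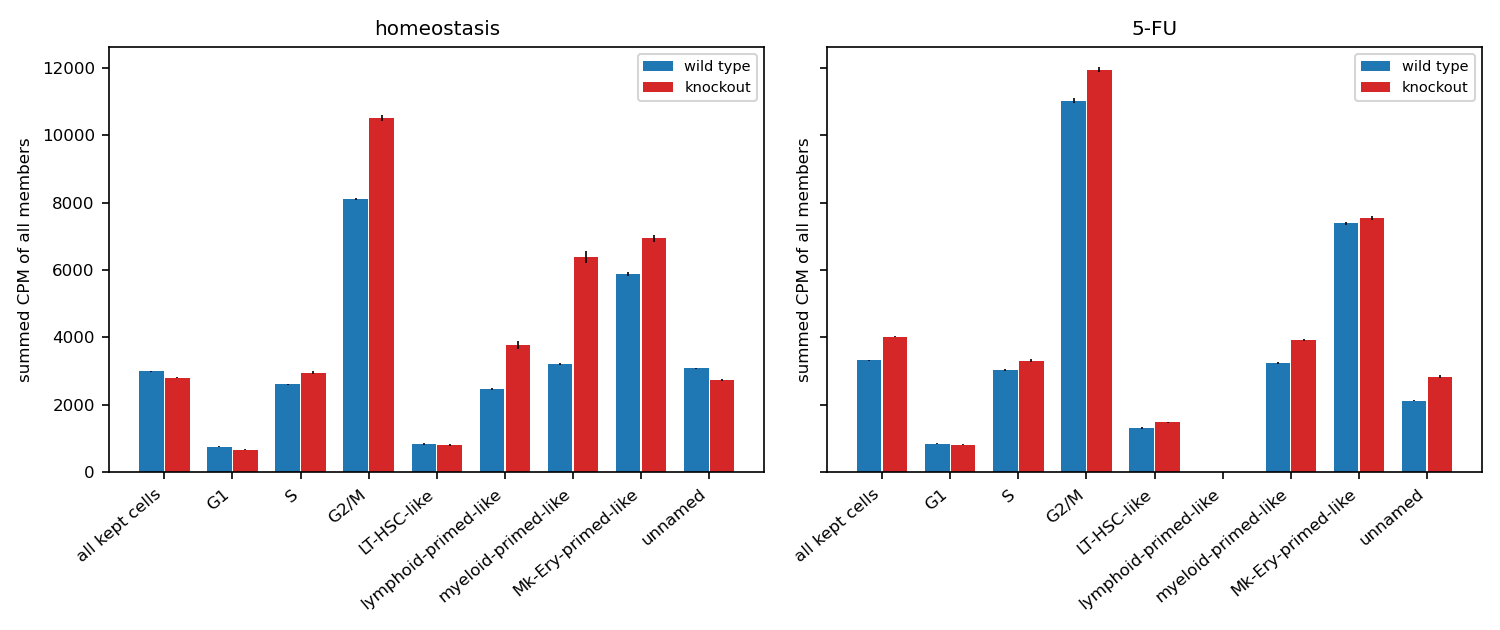
Summed histone CPM (linear axis from 0, bars by genotype, 95% counting intervals) in each phase and each cell population of the 2 libraries. LT-HSC-like cells lie lowest of the named populations, at 808 to 1477 CPM, and megakaryocyte-erythroid-primed-like cells highest, at 5867 to 7541 CPM, below the G2/M cells.

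Across 37 cluster-by-genotype pools, centred within each library, genes were ranked by Pearson r with each class sum. Hmgb2 and Cks2 stood highest or next to it for H2A and H3 (0.961 to 0.969), and Tpx2 followed (0.953 and 0.949). All 3 are among the G2/M genes that scored the cells. H2afx, the gene of the variant H2A.X and not in the score lists, led H1 (0.946), H2B (0.941) and H4 (0.964). Hmgb2 (0.943) and Tgfb1 (0.937) followed for H1, Hmgb2 (0.925) and Cks1b (0.919) for H2B, and Cks2 (0.920) and Jpt1 (0.918) for H4. The pools share 2 libraries and their depth, so these values are a description. Of the 34 members deep enough to be ranked in both libraries, Hist3h2ba was least like the sum of the others (r = -0.017) and Hist1h1c next (0.53), while Hist1h2ae was most like it (0.985).

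Turning to genotype, the summed level was slightly lower in knockout cells at homeostasis and higher after 5-FU. It was 2989 CPM in wild-type and 2802 CPM in knockout cells at homeostasis, a log2 ratio of -0.09 (-0.10 to -0.08), and 3316 and 4023 CPM after 5-FU, a ratio of 0.28 (0.27 to 0.29). The summed level of the 9 megakaryocyte-erythroid-primed markers was 161 CPM in wild-type and 308 CPM in knockout cells at homeostasis, and 526 and 878 CPM after 5-FU. That of the 8 lymphoid-primed markers was 854 and 616 CPM, and 268 and 153 CPM. The 9 myeloid-primed markers were at 624 and 513 CPM, and at 848 and 612 CPM, and the 10 LT-HSC markers at 1691 and 2136 CPM, and at 919 and 1015 CPM. At homeostasis, LT-HSC-like cells, lowest in histone transcripts among the named populations, made up 1216 of the 10184 cells in the wild-type pool and 1159 of the 4108 in the knockout pool. Every marker was detected in each pool but 1 lymphoid-primed marker in knockout cells at homeostasis, and the part of these populations in the histone ratios was not tested. H2A, the class with the most UMIs, was at 2059 and 1950 CPM and at 1888 and 2357 CPM. Log2 ratios of the classes at homeostasis were -0.09 for H1, -0.08 for H2A, -0.18 for H2B, -0.13 for H3 and -0.14 for H4. After 5-FU they were 0.29, 0.32, 0.23, 0.21 and 0.06, and the polyadenylated members had -0.07 and 0.18.

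The mix of phases differed between the genotypes as well. At homeostasis 20.8% of wild-type and 13.9% of knockout cells were in G2/M and 14.8% and 11.2% in S. Summed within phases, the knockout pool at homeostasis had the lower level in G1 (751 against 661 CPM, a log2 ratio of -0.18). It had the higher level in S (2599 against 2949, 0.18) and in G2/M (8110 against 10506, 0.37). At 4000 UMIs per cell, the median S cell held 2 histone UMIs in both pools. The median G2/M cell held 13 in wild type and 9 in knockout, and cells with 40 or more were 31.5% and 40.3%. The sum and the median of G2/M cells thus pointed opposite ways. Weighting both genotypes by the library's common mix of phases turned the homeostasis ratio around, to 0.27 from 2861 and 3451 CPM. After 5-FU the G2/M shares were 15.2% and 15.6%, the levels were 841 and 815 CPM in G1, 3039 and 3309 in S and 11028 and 11950 in G2/M, and the common mix left 0.10. A cell's histone level and its phase call come from the same RNA, and how the cells were spread within a phase was not matched.

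The direction was shared by many members. Of 56 members with 50 or more UMIs in the library, 48 had a ratio below 0 at homeostasis, and 49 of 56 had one above 0 after 5-FU. Their median log2 ratios were -0.15 and 0.22, against 0.01 and -0.02 over all genes. The members were counted in the same cells of the same pools, and 19 share over 50% of their windows with another histone gene. Counts of members are thus not counts of independent results. At homeostasis the counting interval lay below 0 for 24 members (23.3% of all genes) and above 0 for 1 (24.5%). After 5-FU it lay above 0 for 32 (23.5%) and below 0 for 2 (27.7%), and 18 of the 55 members with that depth in both libraries were lower at homeostasis and higher after 5-FU with both intervals clear of 0 (4.12% of all genes). Within phases the members at that depth did not all follow the pools. At homeostasis 9 of 39 lay above 0 in G1 (50.4% of all genes), 26 of 37 in S (49.0%) and 43 of 50 in G2/M (6202 of all 12401 genes). After 5-FU 15 of 38 lay above 0 in G1 (48.4%), 32 of 43 in S (45.6%) and 32 of 51 in G2/M (46.2%).

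Few members passed 1.5-fold, as did few of all genes, and these counts do not set the members apart from all genes. At homeostasis 5 of 56 did, against 10.6% of all genes, with 1 higher (5.48%) and 4 lower in knockout cells (5.08%). After 5-FU 3 of 56 did, against 8.48%, with 3 higher (3.66%) and none lower (4.83%). With all cells that bore 1 hashtag, 6 of 57 did after 5-FU, against 9.74% of all genes. Among the 41 members with 50 or more UMIs in every pool, the highest mean ratios were those of Hist1h2bf (0.33 and 0.37), Hist1h3g (-0.04 and 0.73) and Hist1h1b (-0.05 and 0.50), giving homeostasis first. The lowest among the 41 were those of Hist4h4 (-0.67 and -0.35), Hist1h2ac (-0.44 and 0.09) and Hist1h2ai (-0.58 and 0.27). Hist4h4 was lower in knockout cells of both libraries, at 6.15 and 3.86 CPM at homeostasis (-0.97 to -0.39) and at 3.45 and 2.71 CPM after 5-FU (-0.70 to -0.01).

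**Figure D5:**
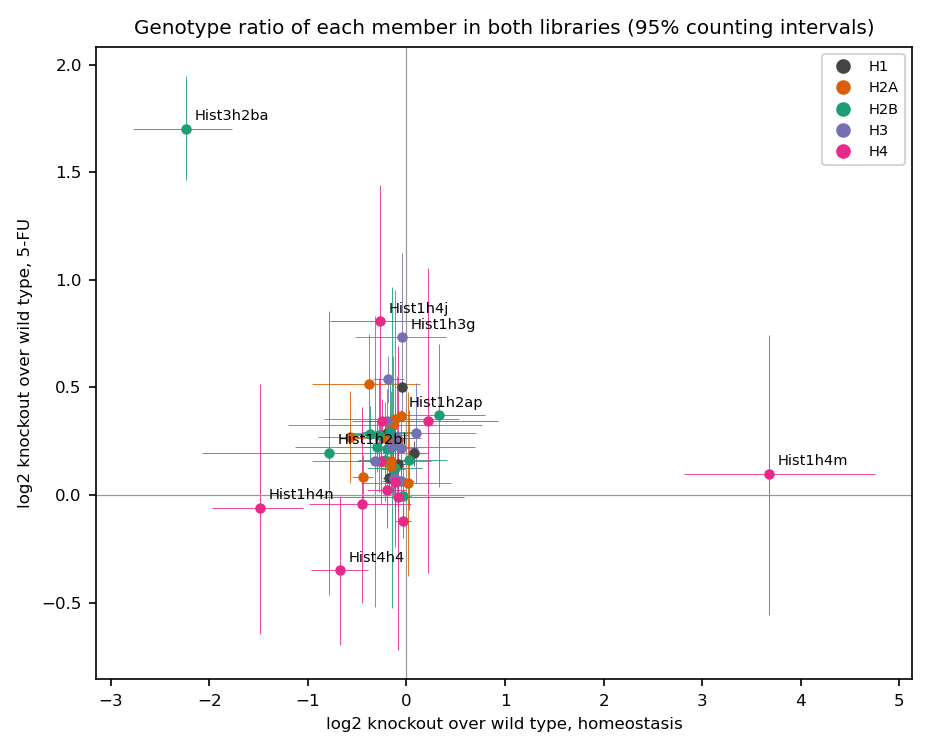
Log2 ratio of knockout over wild type at homeostasis (horizontal) against that after 5-FU (vertical) for the 55 members with 50 or more UMIs in both libraries, coloured by class, with 95% counting intervals. Most points lie just left of 0 and above 0, Hist4h4 lies below 0 on both axes, and the points farthest off are Hist1h4m at 3.68 and 0.10, Hist3h2ba at -2.23 and 1.70 and Hist1h4n at -1.48 and -0.06.

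Hist3h2ba, an H2B gene outside the large clusters, was singled out after its values were seen. It was at 5.67 CPM in wild-type (470 UMIs) and 1.19 CPM in knockout cells (38 UMIs) at homeostasis, a log2 ratio of -2.23 (-2.77 to -1.77). After 5-FU it was at 3.74 CPM (196 UMIs) and 12.2 CPM (531 UMIs), a ratio of 1.70 (1.47 to 1.95). The same directions were seen in each phase and each named population, though at homeostasis the interval reached past 0 in S, lymphoid-primed-like and myeloid-primed-like cells. G1 cells held 5.69 and 1.17 CPM at homeostasis and 3.60 and 12.1 CPM after 5-FU, G2/M cells 7.94 and 1.37 CPM and 6.62 and 21.2 CPM, and LT-HSC-like cells 6.79 and 1.54 CPM and 5.94 and 12.5 CPM. Empty droplets at homeostasis held 1.94 CPM of it (3 UMIs), a level that the knockout pool there did not exceed. Its log2 ratios of S over G1 in wild-type cells were -1.52 and -0.96, below 0 in both libraries. Within the 3′ ends compared, its transcript shared no 91-base window with another histone gene.

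The pair Hist1h4m and Hist1h4n was likewise chosen after its values were seen. At homeostasis Hist1h4m had 12 wild-type UMIs and 61 knockout UMIs, a log2 ratio of 3.68 (2.82 to 4.75), and Hist1h4n had 337 and 46, a ratio of -1.48 (-1.97 to -1.05). Empty droplets held 1.94 CPM of Hist1h4n (3 UMIs), against 1.44 CPM in the knockout pool. After 5-FU the ratios were 0.10 and -0.06. The 2 transcripts are near copies, and their sum was at 4.21 and 3.35 CPM at homeostasis, a ratio of -0.32 (-0.65 to -0.01), and at 1.98 and 1.99 CPM after 5-FU. The ratio of the sum thus lay closer to 0 than that of either copy at homeostasis.

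To ask which members had a like genotype ratio in both libraries, the 4 pools were fitted with library and genotype as terms (edgeR quasi-likelihood, Benjamini-Hochberg over 17202 genes, 1 residual degree of freedom). The pools of a genotype come from different conditions and are not replicates. Members with opposite ratios in the libraries, such as Hist3h2ba (-2.23 and 1.70, fitted log2 fold change 0.04), are not found by such a fit. A member not called can thus still differ between genotypes within a library. The edgeR fit called 312 genes (1.81%) and 0 of 58 members, and DESeq2 called 0 of 51 (1.46% of all genes). At an unadjusted p under 0.05 stood 3 members (14.1% of all genes) in edgeR and 0 in DESeq2 (6.47%). Those 3 were Hist4h4 (log2 fold change -0.51, edgeR adjusted p = 0.2599), Hist1h4n (-0.83, edgeR adjusted p = 0.3493) and Hist1h4m (1.70, edgeR adjusted p = 0.3504).

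Genes that work with histones were described from lists. The 11 replacement variants, which are made outside S phase or by other promoters, had median log2 ratios of -0.14 at homeostasis and 0.19 after 5-FU. At homeostasis 0 were 1.5-fold higher and 1 was lower, and after 5-FU 2 were higher and 0 lower. Over all genes, 5.48% were higher and 5.08% lower at homeostasis and 3.66% and 4.83% after 5-FU, shares that also stand beside the counts of the next lists. H2afy, the macroH2A1 gene, was at 1449 and 923 CPM (-0.65) and at 1181 and 974 CPM (-0.28), and H1f0, the gene of the H1 variant of resting cells, at 46.6 and 56.3 CPM (0.27) and at 73.0 and 118 CPM (0.69). H2afy2 was at 5.84 and 6.46 CPM and at 4.67 and 7.02 CPM (0.59). Of the 17 gene symbols listed for histone mRNA processing and transcription, 15 were in the table and 0 passed 1.5-fold in either library, with medians of -0.01 and 0.05. Cpsf3l and Ars2 were not found under these symbols. Other names, under which these genes may have been counted, were not searched. Cpsf2, of the cleavage machinery, had 0.19 and 0.26, Npat, which activates histone transcription, 0.06 and 0.18, and Lsm11, of the U7 particle, -0.21 and -0.12. Of 15 chaperones and acetyl writers, 0 passed at homeostasis and 1 was higher after 5-FU, with medians of -0.08 and 0.08. That gene was Asf1b, an H3 and H4 chaperone of dividing cells, at 11.3 and 13.2 CPM and at 18.1 and 27.8 CPM (0.62). Chaf1b was at 51.7 and 36.0 CPM (-0.52) and at 49.2 and 47.4 CPM (-0.05), and the H2A and H2B chaperone Nap1l1 at 405 and 300 CPM (-0.43) and at 518 and 480 CPM (-0.11).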

How the data were processed

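Single-cell RNA-Seq and hashtag libraries of LSK cells were deposited as raw UMI counts per gene and barcode, which the authors made with Cell Ranger (version 4 for homeostasis and 6.0.1 for 5-FU, per the file headers). The submitters' processing notes also name Seurat, DESeq2 and mm9, and the files hold no coordinates, so positions are from GRCm38 by Ensembl gene ID. Gene names of the homeostasis matrix came from the 5-FU feature list in the same row order (correlation of log counts across genes 0.926, and 0.395 when shifted by 1 row).

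Of 6794880 barcodes listed for homeostasis, the 23931 with at least 2921 gene UMIs were used as cells. All 12753 barcodes listed for 5-FU were used, without this minimum. Hashtags were classified with HTODemux (Seurat 5.3.0), the tag of each genotype being taken from the study. Cells inside the 2nd to 98th percentile of UMIs, genes and mitochondrial share with under 2 UMIs of 9 lineage genes were kept. Doublets within a genotype were not removed. Phases, without histone genes, used cells thinned to 4000 UMIs, which left out 484 of 10184 wild-type and 228 of 4108 knockout cells of the homeostasis library, and 512 of 4855 and 170 of 3307 after 5-FU. Clusters came from scanpy 1.11.5 (Leiden resolution 1), leaving out histone and cell cycle genes. UMIs were summed per pool and divided by its gene UMIs (CPM). Ratios have 0.5 UMIs added and exact conditional binomial 95% intervals, and CPM exact Poisson intervals. A fold needed 50 UMIs per library. The fit used edgeR 4.0.16 (TMM, filterByExpr, adjusted p under 0.05), checked on simulated data, with DESeq2 1.42.0 as an alternative. The members and lists were chosen with earlier results of these data known. Named were the 3 members with the most UMIs per class, the polyadenylated list, the 3 highest and 3 lowest mean ratios among members with 50 UMIs in each pool and any called in the fit, and up to 3 genes of each other list.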

Additional observations from a re-analysis of the deposited data

Results flagged for a closer look

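For the sum of all members and for 11 members singled out by name, the ratio of knockout over wild type pointed one way at homeostasis and the other way after 5-FU, with both counting intervals clear of 0. Of the 55 members with 50 or more UMIs in both libraries 18 did so, against 4.12% of all genes. The members come from the same cells and are not independent of each other. With 1 pool per genotype in each library the difference between the libraries was not tested, and it cannot be told apart from the library itself. In each case the log2 ratio at homeostasis is given first and that after 5-FU second.

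The sum of all members had -0.093 and 0.279. With both genotypes weighted by a common mix of phases it had 0.271 and 0.098, above 0 in both libraries. Among H1 and H2A genes, Hist1h1e had -0.181 and 0.0798, Hist1h2ap had -0.0589 and 0.368, Hist1h2ae had -0.0890 and 0.257, Hist1h2ab had -0.169 and 0.325, and Hist1h2ai had -0.576 and 0.270. The H2B genes were Hist1h2bc with -0.195 and 0.216 and Hist3h2ba with -2.23 and 1.70. The H3 genes Hist1h3c and Hist1h3f had -0.152 and 0.226, and -0.125 and 0.0775. For H4, Hist1h4d had -0.117 and 0.0596 and Hist1h4i had -0.244 and 0.345. Apart from Hist3h2ba, the members named here differed by less than 1.5-fold in both libraries or, for Hist1h2ai at homeostasis, by just under it.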

How the results depend on the processing

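The fit over 4 pools set the genotypes within a library by its library term, and the labels give no replicate numbers for a further pairing. The 80% rule left 869 knockout and 6137 wild-type cells at homeostasis, against 4108 and 10184. With all cells that bore 1 hashtag, a tag holding 80% of hashtag UMIs, the mean of per-cell CPM, Hist1h2ap left out, and DESeq2 size factors, in this order, the all-cell ratio was -0.071, -0.23, -0.18, -0.13 and -0.11 at homeostasis, and 0.42, 0.29, 0.30, 0.23 and 0.30 after 5-FU. A common phase mix, added after seeing the data, reversed it to 0.27 at homeostasis and gave 0.10 after 5-FU. In S cells at homeostasis it was 0.27 by the per-cell mean, 0.15 without Hist1h2ap and 0.29 in cells with both scores above 0. After 5-FU it was 0.19 with all tagged cells, 0.20 with the 80% rule, 0.21 by the per-cell mean and 0.079 without Hist1h2ap.

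In LT-HSC-like cells at homeostasis the ratio turned from -0.05 to 0.10 with all tagged cells, and was -0.39 with the 80% rule, -0.15 by the per-cell mean and -0.42 at Leiden resolution 0.5. After 5-FU all tagged cells reversed it to -0.088, and it was 0.040 with the 80% rule, 0.038 by the per-cell mean, 0.13 without Hist1h2ap, 0.31 at resolution 0.5 and 0.0012 by signature. The S over G1 log2 ratio of replication-dependent members was 2.19 and 2.05 with the 80% rule, 1.74 and 1.82 by the per-cell mean, 1.48 and 1.75 without Hist1h2ap and 2.40 and 2.66 by gene model (homeostasis, then 5-FU). After 5-FU it was also 2.20 with all tagged cells and 2.21 with a stricter S call. That of polyadenylated members was -0.44 and -0.67 by the per-cell mean and reversed to 0.17 and 0.31 by gene model, which adds replication-dependent genes to the set. After 5-FU 6 of 57 members passed 1.5-fold with all tagged cells (9.74% of all genes), and the ratio of Hist1h4h reversed to 0.0065. Except where construction shows it, the cause was not tested. No alternative called a member in the fit, with a lowest adjusted p of 0.2284 to 0.9999. Over all alternatives, values of the main results moved beyond the counting interval, or a count beyond 1.5 times, in 40 checks, reversed in 4 and stayed in 31. Those of named genes moved in 29, reversed in 1 and stayed in 114. A change of sign counted as reversed only where the main counting interval was clear of 0. Members under 50 UMIs were too shallow for a ratio.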

Other observations

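Hist2h2bb and Hist3h2a missed the depth minimum through 1 library alone. Both had 0 UMIs in the homeostasis pools, which allows up to 3 UMIs, or 0.0362 CPM in wild-type and 0.0940 CPM in knockout cells, by counting error. After 5-FU, Hist2h2bb had 580 and 519 UMIs (11.1 and 11.9 CPM) and Hist3h2a, a polyadenylated H2A gene that lies beside Hist3h2ba on chromosome 11, had 526 and 708 UMIs (10.0 and 16.2 CPM in wild-type and knockout cells). The libraries were counted with different Cell Ranger versions, and whether both used 1 annotation was not stated in what was read here.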
